A study of Mus musculus with 4 samples.

Results

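The genes described here are 10 mouse inhibitors of proteases: the cystatins Cst3 and Cst7, the stefins Cstb, Stfa1, Stfa2 and Stfa3, the paralogous pair Ctla2a and Ctla2b, the secretory leukocyte inhibitor Slpi and the serpin Serpinb1a. They were measured in granulocyte/monocyte progenitors (GMP), marrow cells committed to granulocytes and monocytes, from mice deficient in Icsbp, also called Irf8, an interferon-linked transcription factor of myeloid cells, and from wild type mice. Every probe set whose platform symbol is or includes one of the 10 was taken, which gave 12 probe sets for 9 of the 10 genes, out of 45101 probe sets for 19324 symbols in all. Stfa2 is carried by no probe set of either annotation table and is not analysed here. Of the 12 probe sets 11 are on both array types used, called 430A and MOE430_2 here, and 1 is on the MOE430_2 array alone. A probe set is the group of short oligonucleotides that reads 1 transcript, and 2 of the 12 carry the symbols of 2 paralogs.

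The Icsbp-deficient group has 2 arrays, 1 of each type, each from marrow of at least 8 mice aged 10 to 16 weeks. The sources used here do not say which alteration makes these mice deficient. The wild type group also has 2 arrays, 1 of each type, each from pooled marrow of at least 10 mice of the same ages. The wild type 430A sample has a label that names a mixed C57/Bl6 and S129Ola background but no genotype, and it was placed by the series' design text. For the other 3 samples no strain background was given. Both Irf8 probe sets were still read in Icsbp-deficient GMP and neither passed the test, at mean log2 ratios of -0.48 (limma adjusted p = 0.124) and 0.061 (adjusted p = 0.832). All 8 GMP markers were measurable, with signals that summed to 69457 (430A) and 116712 (MOE430_2) in Icsbp-deficient GMP, against 69773 and 110657 in wild type GMP. These are sums of the brightest probe set of each gene, in which Mpo, Elane, Ctsg and Prtn3 weigh most. The 2 arrays of each type were normalised to 1 distribution, which draws the brightest signals together. Near-equal sums were thus largely set by the processing and do not check the labelled cell type. Of the 9 GMP probe sets 2 passed, against 5.13% of all tested probe sets. The surface marker Cd34 was at 818 and 819 in Icsbp-deficient GMP, against 2623 and 3062 in wild type GMP (mean log2 ratio -1.73, limma adjusted p = 0.000134). The Fc receptor Fcgr3, a surface marker used to define GMP, was at 4883 and 6129.7, against 2419.6 and 3017 (mean log2 ratio 1.00, limma adjusted p = 0.000776). Of 7 B and T cell markers on both array types 6 lay under the lower limit for testing. The other, Cd79b, was at 563 (430A) and 498 (MOE430_2) in Icsbp-deficient GMP, against 417 and 420 in wild type GMP. It did not pass (mean log2 ratio 0.31, limma adjusted p = 0.326).

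Proteases that digest proteins inside granules and lysosomes are kept in check by dedicated inhibitors. Cystatins and stefins block papain-like cysteine proteases, the lysosomal cathepsins: cystatins are mostly secreted or carried into endosomes and lysosomes, whereas stefins act in the cytosol. Serpins trap serine proteases by a change of shape that destroys both partners, and inhibitors of the whey acidic protein (WAP) family such as Slpi bind elastase-type enzymes tightly. In neutrophils and their progenitors, which store elastase, proteinase 3 and cathepsin G in azurophil granules, such inhibitors limit damage when these enzymes leak.

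Signals below are normalised signal intensities on a linear scale. Each ratio sets Icsbp-deficient over wild type as a log2 value, after an offset of 50 was added to each signal, which understates changes of dim probe sets. Each array type gave 1 ratio, and errors written ± are limma's moderated standard errors of a mean of n = 2 ratios, borrowed largely from other probe sets. Folds, too, are of the signal plus 50. Of the 11 probe sets on both array types 10, of 7 genes, were bright enough to be tested. In Icsbp-deficient GMP 3 of the 10 rose, namely Slpi and both probe sets of Serpinb1a. Another 2 fell, the probe set shared by Ctla2a and Ctla2b and that of Ctla2a alone. The latter was above the limit for testing in wild type GMP only. The other 5 did not pass at a limma adjusted p of 0.05. Over all 13576 tested probe sets 5.13% passed, 2.99% being higher and 2.14% lower. The median log2 ratio was 0.29 over the 10 member probe sets and -0.0089 over all tested ones. Icsbp-deficient and wild type signals did not overlap over the 4 arrays for 6 of the 10, 3 higher and 3 lower, which held for 25.0% of all tested probe sets. The ratios of both array types had the same sign in 9 of the 10, the exception being Cst3.

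All 5 calls rest on comparing the arrays within each type. When array type was left out of the limma model 0 of the 10 passed, with 3 at an unadjusted p under 0.05. Of all 13576 tested probe sets 1 passed in that model, with 478 at an unadjusted p under 0.05. Leaving out 1 array in that unblocked model gave 0 passing probe sets without the Icsbp-deficient 430A, the wild type 430A or the wild type MOE430_2 array, with 3, 2 and 3 at an unadjusted p under 0.05, and 1 without the Icsbp-deficient MOE430_2 array, that of Ctla2a. With the intensities as deposited, before any scaling, 0 of the 10 passed, and 0 of all 13576 tested probe sets. The median ratio of all tested probe sets was then -0.65, and all 10 tested member probe sets had ratios under 0, Slpi at -0.050 and Serpinb1a at -0.14 and -0.051. Relative to that median Slpi was at 0.60, both Serpinb1a probe sets at 0.52 and 0.60 and Ctla2a at -1.21.

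**Figure D1:**
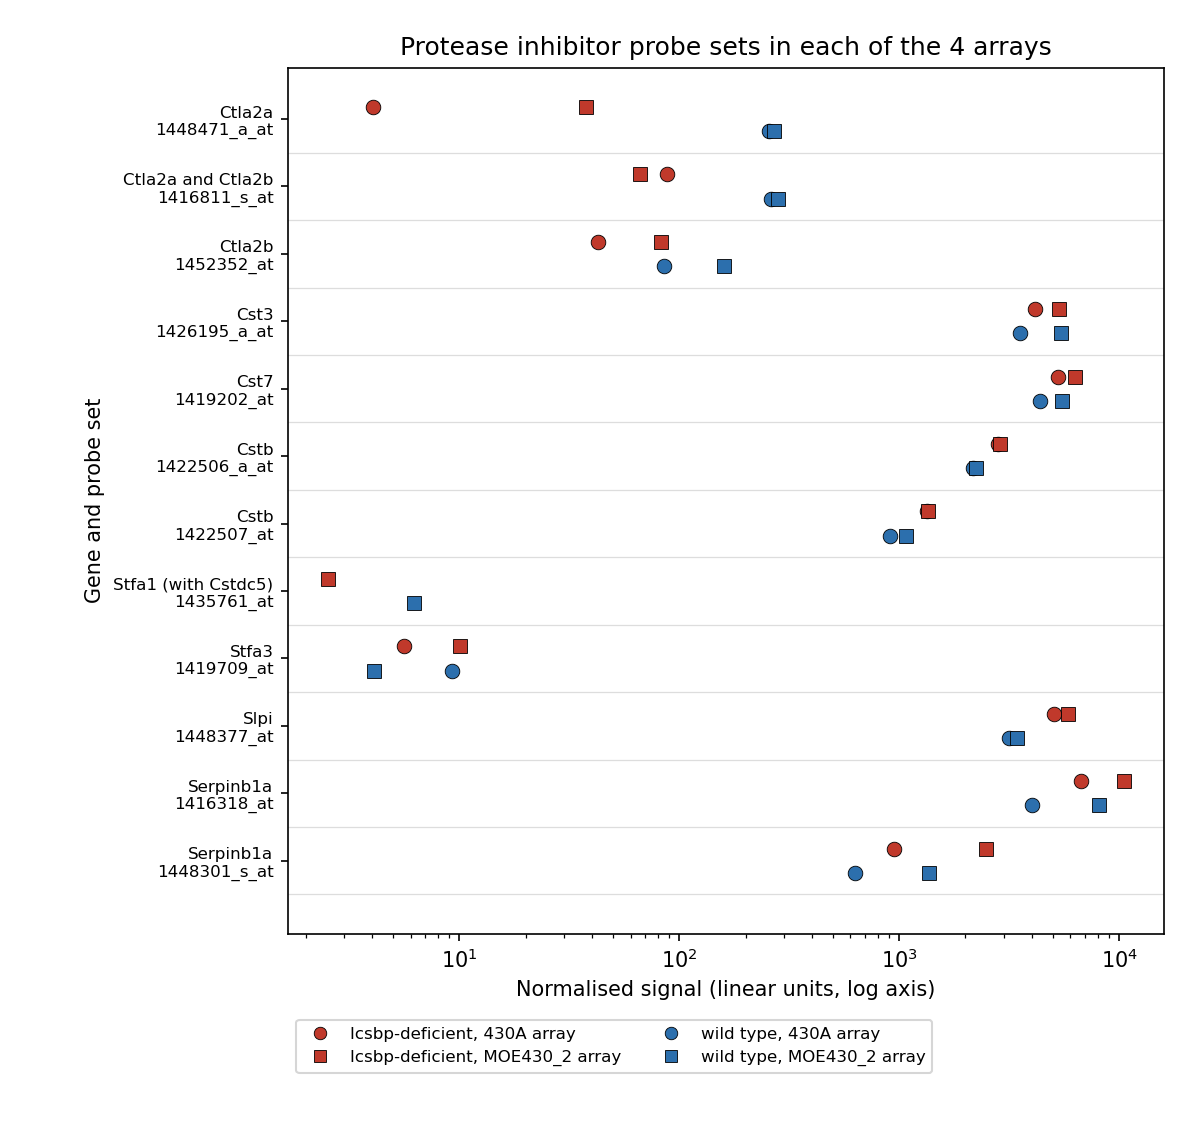
Normalised signal of each of the 12 member probe sets, 1 row each, on a log axis (for Stfa1, present on 1 array type only, the scaled signal). Red symbols are Icsbp-deficient and blue symbols wild type, with circles for 430A and squares for MOE430_2 arrays. Ctla2a lies between 4.05 and 37.8 in Icsbp-deficient GMP and at 256 and 269.9 in wild type GMP, Slpi is higher in both Icsbp-deficient arrays, and the stefin A probe sets lie at about 10 or below on every array.

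Ctla2a and Ctla2b encode small proteins that resemble the propeptide of papain-like cathepsins, the segment that keeps these enzymes inactive, and Ctla2a inhibits cathepsin L-type enzymes. They were first found in activated T cells and mast cells of the mouse and are neighbours on chromosome 13. Their upstream sequences are shown because the paralogs are so alike that 1 probe set reads both, and because the reading specific to Ctla2a had the lowest ratio of all members. Each is 300 bases from 250 before to 50 after the gene start, read 5′ to 3′ on the gene's strand from RefSeq, build GRCm38.p6, at chr13:60936576-60936875 for Ctla2a and chr13:60897398-60897697 for Ctla2b, both on the minus strand. Capitals mark a GATA motif.
Ctla2a: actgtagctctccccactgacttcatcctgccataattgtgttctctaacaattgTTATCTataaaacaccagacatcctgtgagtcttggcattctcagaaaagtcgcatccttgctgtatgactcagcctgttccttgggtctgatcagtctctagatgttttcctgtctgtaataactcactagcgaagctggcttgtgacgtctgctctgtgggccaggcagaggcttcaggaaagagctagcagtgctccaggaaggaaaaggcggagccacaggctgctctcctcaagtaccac
Ctla2b: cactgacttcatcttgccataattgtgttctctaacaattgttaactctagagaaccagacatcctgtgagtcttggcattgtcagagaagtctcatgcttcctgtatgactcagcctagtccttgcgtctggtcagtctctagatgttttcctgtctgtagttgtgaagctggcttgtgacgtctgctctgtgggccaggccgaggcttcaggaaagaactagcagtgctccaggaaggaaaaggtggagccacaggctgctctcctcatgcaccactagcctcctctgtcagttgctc
The sequences were identical at 256 of 278 aligned bases, or 92.1%. The GATA motif searched was AGATAA or TGATAA, each also with G as its last base, and the C/EBP motif was TTGCNNAA. The ETS-IRF composite element was searched as GGAA and the interferon-stimulated response element as GAAA, each followed after any 2 bases by GAAA, so that they share an end. All were searched on both strands. Of 32851 promoters of this length in the table, 29.8% held a GATA motif, 10.8% a C/EBP motif, 2.72% the ETS-IRF element and 3.44% the interferon-stimulated element. The Ctla2a window held 1 GATA motif, on the opposite strand at position -195 from the gene start, and the Ctla2b window held none of the 4.

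The probe set that carries Ctla2a alone had signals of 4.05 on the 430A and 37.8 on the MOE430_2 array in Icsbp-deficient GMP, against 256 and 269.9 in wild type GMP. Both Icsbp-deficient values lay far under both wild type values. The log2 ratio was -2.50 on the 430A pair and -1.87 on the MOE430_2 pair, with a mean of -2.18 ± 0.24 (limma adjusted p = 0.000894). Both Icsbp-deficient signals lay under 76.8, the mean signal below which probe sets were not tested, so the probe set entered the test through its wild type signals, and the size of the ratio is not exact. It depends on the offset, the mean log2 ratio being -3.09 with an offset of 16 and -1.07 with an offset of 200. In a bulk sample such as this, fewer cells that express a gene and less RNA per cell cannot be told apart.

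The probe set shared by Ctla2a and Ctla2b had signals of 87.7 and 66.3 in Icsbp-deficient GMP, against 260.0 and 281 in wild type GMP, on the 430A and MOE430_2 arrays in that order. Here too the groups did not overlap. Its log2 ratios were -1.17 for the 430A pair and -1.51 for the MOE430_2 pair, with a mean of -1.34 ± 0.20 (adjusted p = 0.00468). How much of it each paralog contributes cannot be told from this probe set. The probe set of Ctla2b alone was at 42.6 and 82.7 in Icsbp-deficient GMP, against 84.8 and 159.8 in wild type GMP, so that each Icsbp-deficient value was lower than its wild type partner. Its mean log2 ratio of -0.60 ± 0.22 (-0.54 and -0.66) did not pass (adjusted p = 0.177), with a 95% interval of -1.10 to -0.11. Whether Ctla2b differed less than Ctla2a was not tested.

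Mast cells are among the known sources of Ctla2a, and markers of mast cells, basophils and eosinophils moved with it. All 10 tested probe sets of 8 such markers fell, against 2.14% of all tested probe sets. With 1 probe set per gene, the brightest, their signals summed to 2169 (430A) and 2220.2 (MOE430_2) in Icsbp-deficient GMP, against 6266 and 8857 in wild type GMP, and no marker of that list lay under the limit for testing. However, Fcer1a and 1 probe set of Gata2 had both Icsbp-deficient signals under 76.8, so they entered the test through their wild type signals. Erythroid markers also fell, in 2 of 4 tested probe sets, those of the carbonic anhydrases Car1 (mean log2 ratio -2.37, adjusted p = 0.00544) and Car2 (-2.21, adjusted p = 0.000408), and their signals summed in the same way to 475 and 213 in Icsbp-deficient GMP, against 1241 and 1935 in wild type GMP. Of 12 tested monocyte and macrophage probe sets 3 fell, that of Ly86 (-4.79, adjusted p = 2.1e-06) and both of Klf4 (-2.74 and -1.90). Another 3 rose, as given below, and the median log2 ratio of the 12 was -0.037. Those of Csf1r were at -0.014, -0.059 and -0.14 and did not pass. The Icsbp-deficient signals of Car1, Ly86 and Klf4 all lay under 76.8. These probe sets entered the test through their wild type signals, so the sizes of their ratios are not exact. The part of any of these cell types in the Ctla2a difference was not tested. Among 12490 tested probe sets of other genes the closest pairs of ratios to those of Ctla2a, by Euclidean distance over n = 2 ratios, belonged to Rab38 (-2.56 and -1.89 on the 430A and MOE430_2 arrays), 1 probe set of Klf4 (-2.09 and -1.72) and the cathepsin Ctsh (-2.23 and -2.25).

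**Figure D2:**
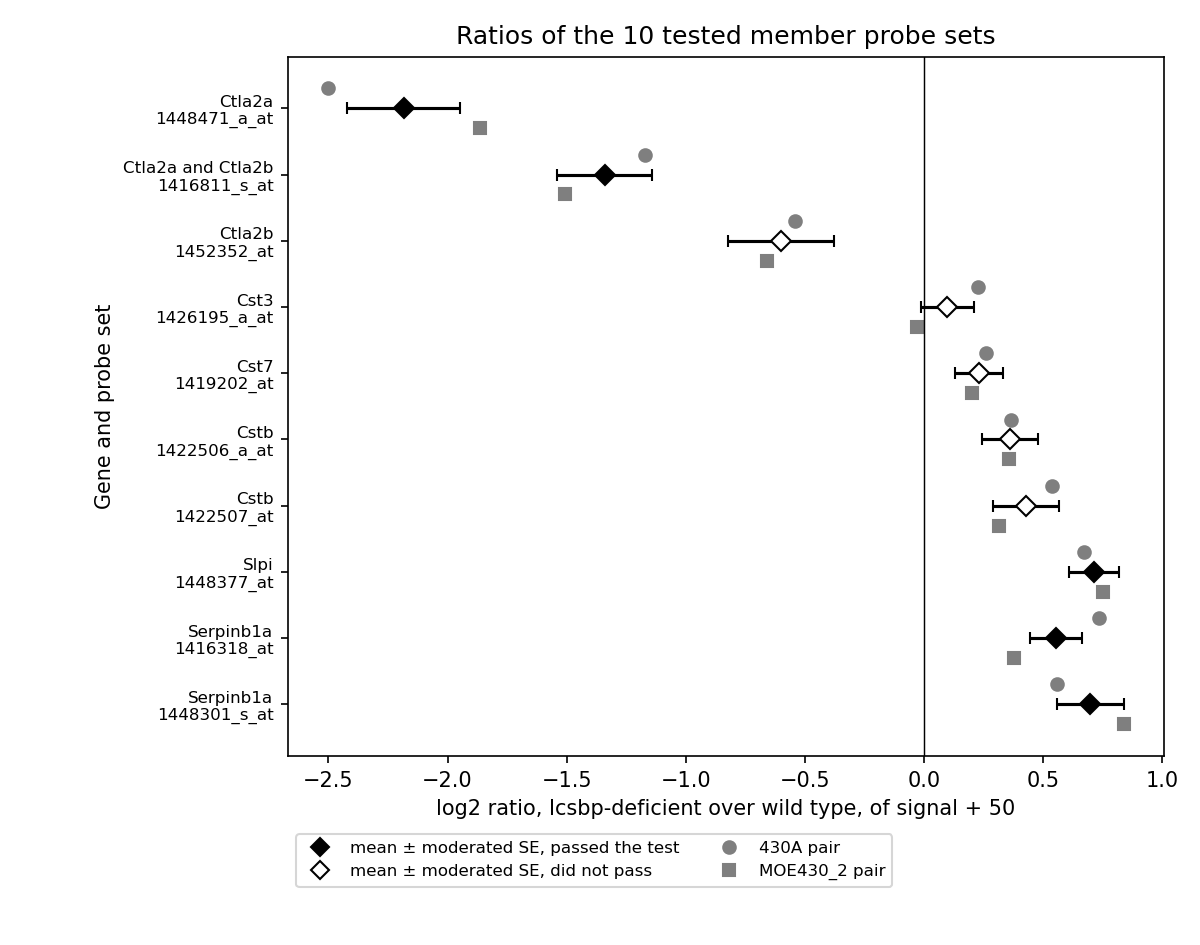
Log2 ratios of Icsbp-deficient over wild type for the 10 tested member probe sets, 1 row each. Diamonds with bars are the mean and moderated standard error, filled where the adjusted p was under 0.05, and grey circles and squares are the 430A and MOE430_2 ratios. Ctla2a and the shared Ctla2 probe set lie at -2.18 and -1.34, and Slpi and both Serpinb1a probe sets between 0.55 and 0.71.

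Slpi and Serpinb1a rose. Slpi is secreted by epithelia and neutrophils, inhibits elastase and cathepsin G, and also acts in myeloid cells on inflammatory signalling. Its upstream sequence is shown as that of the rising member found in the promoter table, at chr2:164356458-164356757 on the minus strand (RefSeq, GRCm38.p6), with a C/EBP and a GATA motif in capitals.
Slpi: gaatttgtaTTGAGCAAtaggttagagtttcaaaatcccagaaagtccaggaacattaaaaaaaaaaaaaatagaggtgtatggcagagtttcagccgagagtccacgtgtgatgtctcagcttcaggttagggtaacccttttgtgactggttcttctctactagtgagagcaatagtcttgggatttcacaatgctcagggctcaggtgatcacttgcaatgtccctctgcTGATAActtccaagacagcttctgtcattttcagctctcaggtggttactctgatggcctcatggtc
The C/EBP match started at position -241 on the opposite strand and the GATA match at -17, and neither of the IRF elements was in the window. Of the 10 members 8 were in the promoter table, and Serpinb1a and Cstb were not. Among the others the ETS-IRF element was found in Stfa3 alone, at -178, the C/EBP motif in Cst7 at -3 and in Stfa1 at -109, and the GATA motif in Stfa1 and Stfa3, while Cst3 and Stfa2 held none. Such a match describes the letters and is not a measured site.

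Slpi signals were 5057 on the 430A and 5836 on the MOE430_2 array in Icsbp-deficient GMP, against 3156 and 3446 in wild type GMP. Both Icsbp-deficient values exceeded both wild type values. The log2 ratios of 0.67 and 0.75 gave a mean of 0.71 ± 0.11, a 1.64-fold higher signal (adjusted p = 0.00458), with a 95% interval of 0.48 to 0.95. Its mean ratio was the highest among the members by a margin smaller than its error, since the second Serpinb1a probe set was at 0.70, and with a floor of 50 Serpinb1a was at 0.73 and Slpi at 0.72. The closest pairs of ratios to those of Slpi among the 12490 probe sets, n = 2 ratios each, were those of Klc4 (0.67 and 0.76), Rhob (0.68 and 0.77) and Gm2a (0.69 and 0.75).

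Serpinb1a, the cytosolic serpin that traps neutrophil elastase, proteinase 3 and cathepsin G, was read by 2 probe sets. The first was at 6742 and 10541.5 in Icsbp-deficient GMP, against 4036 and 8111 in wild type GMP, on the 430A and MOE430_2 arrays in that order. Within each array type the Icsbp-deficient value was higher, although over all 4 arrays the groups overlapped. The ratios of 0.73 and 0.38 averaged 0.55 ± 0.11, or 1.47-fold (adjusted p = 0.0188). The second, whose name marks probes that may match related genes, was at 951 and 2485 in Icsbp-deficient GMP, against 631 and 1367 in wild type GMP. It averaged 0.70 ± 0.14 from ratios of 0.56 and 0.84, or 1.62-fold (adjusted p = 0.0206). The array type with the larger ratio was the 430A for the first probe set and the MOE430_2 for the second. Without an intensity trend in the variance neither Slpi (adjusted p = 0.0707) nor the Serpinb1a probe sets (adjusted p = 0.158 and 0.0875) passed, and when dim probe sets were kept in the test the Serpinb1a probe sets did not (adjusted p = 0.0912 and 0.0554). With 1 array left out and no block, the Serpinb1a ratios were 0.056 and 0.17 without the wild type 430A array. Without the Icsbp-deficient MOE430_2 array they were 0.23 and 0.027. They were 0.88 and 1.37 without the Icsbp-deficient 430A array and 1.05 and 1.23 without the wild type MOE430_2 array. In each such fit 1 group has 1 array type only, so its ratios also take in the difference in signal between array types. Both probe sets were brighter on the MOE430_2 arrays.

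Mature neutrophils express both Slpi and Serpinb1a, and neutrophil markers rose beside them. Of 8 tested probe sets of maturing neutrophil markers 7 rose, the exception being Mmp9, against 2.99% of all tested probe sets. The signals of the 8 genes, by the brightest probe set of each, summed to 13487 (430A) and 22412 (MOE430_2) in Icsbp-deficient GMP. In wild type GMP they summed to 3319 and 3293. Of the 12 monocyte and macrophage probe sets 3 rose as well, 2 of the 3 of the chemokine receptor Ccr2 (1.43 and 1.32, adjusted p = 0.000261 and 0.000905) and that of Cd68 (1.03, adjusted p = 0.00402). Another 3 fell, those of Ly86 and Klf4 given above, and the median log2 ratio of the 12 was -0.037. That list summed to 6796 and 9226 in Icsbp-deficient GMP, against 6645 and 9033 in wild type GMP. The part of more mature cells of either kind in the Slpi and Serpinb1a differences was not tested.

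The cystatins and Cstb were bright on every array and none passed. Cst3, or cystatin C, is the widely secreted inhibitor of cathepsins. It was at 4151 and 5313 in Icsbp-deficient GMP, against 3545 and 5430.3 in wild type GMP, higher on the 430A and slightly lower on the MOE430_2. The mean log2 ratio was 0.10 ± 0.11 (0.22 and -0.031, adjusted p = 0.705), with a 95% interval of -0.15 to 0.34. Cst7, or cystatin F, is made by immune cells and travels to their lysosomes, where it inhibits cathepsins including cathepsin C, the enzyme that activates granule serine proteases. It was at 5257 and 6299 in Icsbp-deficient GMP, against 4385 and 5472.5 in wild type GMP, higher within each array type, with overlap between the groups. Its mean ratio was 0.23 ± 0.10 (0.26 and 0.20, adjusted p = 0.254), with a 95% interval of 0.01 to 0.45.

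Cstb, or stefin B, inhibits cathepsins in the cytosol and nucleus, and in humans its loss causes a myoclonus epilepsy. Its first probe set was at 2810.0 and 2886 in Icsbp-deficient GMP, against 2173 and 2245 in wild type GMP, and its second at 1336 and 1347, against 906 and 1072. In both the Icsbp-deficient values lay above the wild type values without overlap. The mean ratios were 0.36 ± 0.12 (adjusted p = 0.125) and 0.43 ± 0.14 (adjusted p = 0.126), and their 95% intervals ran from 0.10 to 0.62 and from 0.12 to 0.74. Neither passed after adjustment over all tested probe sets.

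The stefin A genes, which arose by duplication in the mouse and lie next to each other on chromosome 16, gave hardly any signal. Stfa3 had signals of 5.60 (430A) and 10.0 (MOE430_2) in Icsbp-deficient GMP, against 9.30 and 4.07 in wild type GMP, with the higher value in a different genotype on each array type. All 4 values lay under 76.8, the signal below which probe sets were not tested. The probe set shared by Stfa1 and its neighbour Cstdc5, on the MOE430_2 array only, had scaled signals of 2.52 in Icsbp-deficient and 6.23 in wild type GMP. The upstream windows of Stfa1, Stfa2 and Stfa3 were 81.4% to 85.0% identical in pairs. Over the 5 probe sets of the stefin A cluster, those of Csta1, Stfa2l1 and the pair Cstdc4 and Csta2 included, the 14 scaled signals ran from 0.623 to 28.7, the highest being Csta1 in Icsbp-deficient GMP on the MOE430_2 array. A difference between genotypes was not detectable at these signals.

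**Figure D3:**
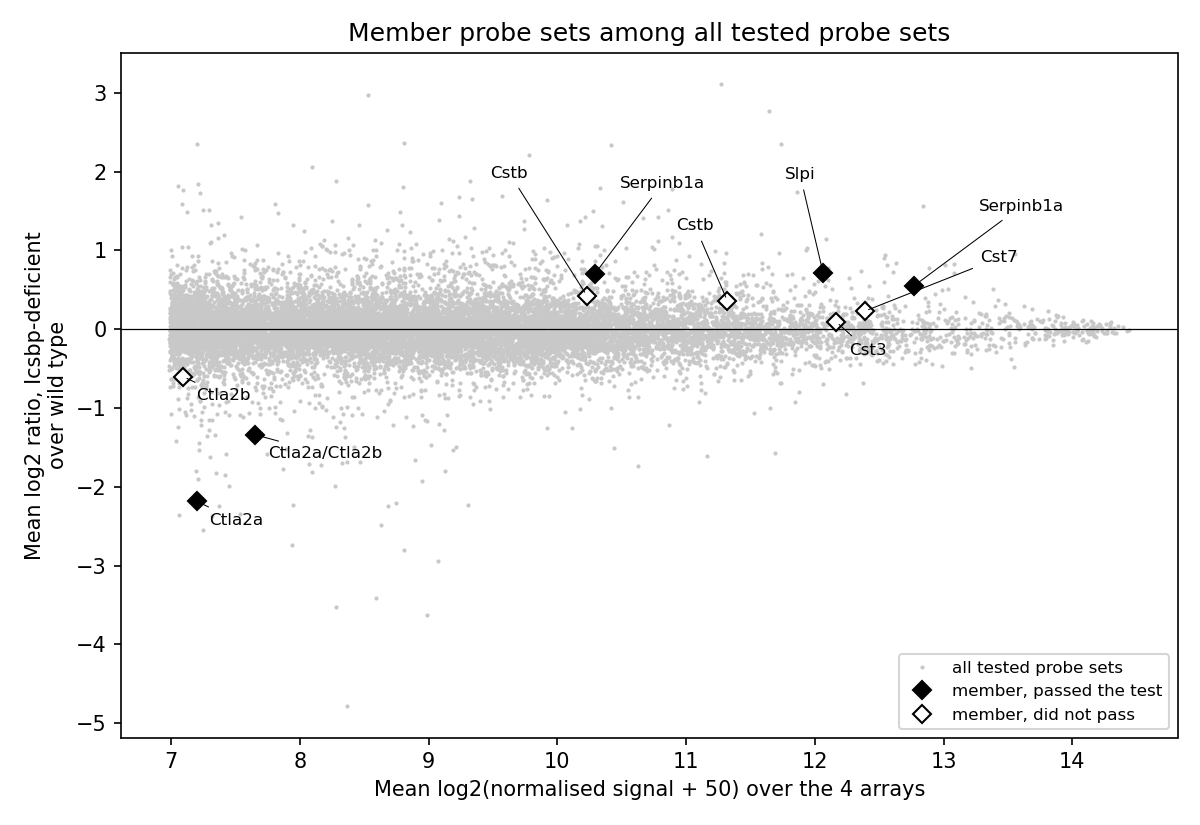
Mean log2 ratio of Icsbp-deficient over wild type (vertical) against the mean log2(normalised signal + 50) over the 4 arrays (horizontal) for the 13576 tested probe sets in grey and the 10 member probe sets as diamonds, filled where they passed. The Ctla2 probe sets lie at the dim end with ratios from -2.18 to -0.60, and the other members lie at brighter signals with ratios from 0.10 to 0.71.

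Other protease inhibitors were taken from a list made by family. Of 110 such genes 63 had a single-gene probe set on both array types, and 28 probe sets of 18 genes were bright enough to be tested. Of the 28, 2 rose and 3 fell, or 17.9%, against 5.13% of all tested probe sets, and the median log2 ratio of the 28 was 0.0097. The rises were Wfdc21, a WAP protein like Slpi, at 0.99 ± 0.14 (adjusted p = 0.00386), and App, whose longer forms carry a Kunitz inhibitor domain, at 0.59 ± 0.13 (adjusted p = 0.0291). Wfdc21 was at 2739 and 4021 in Icsbp-deficient GMP, against 1609 and 1679 in wild type GMP, so that both Icsbp-deficient values were higher.

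The falls were Serpinf1, the serpin known as pigment epithelium-derived factor, which does not inhibit proteases, at -0.86 ± 0.15 (adjusted p = 0.00977), the tissue factor pathway inhibitor Tfpi at -0.74 ± 0.17 (adjusted p = 0.0387) and the Kunitz inhibitor Spint2 at -0.69 ± 0.16 (adjusted p = 0.0342). Serpinf1 was at 435 and 414 in Icsbp-deficient GMP, against 848 and 778 in wild type GMP. A second tested probe set did not pass for App (0.31), Serpinf1 (-0.31) and Spint2 (-0.37), nor did the other two of Tfpi (-0.57 and -0.47). All of these had the sign of the probe set that passed. Without the array type block 0 of the 28 passed in limma, with 3 at an unadjusted p under 0.05, and leaving out any 1 array in that model also gave 0, with 2 to 5 unadjusted.

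Proteases of the classes that these inhibitors act on moved in both directions. Of 11 tested probe sets of papain-like cathepsins 2 rose and 2 fell, or 36.4% in all, against 5.13% of all tested probe sets. The rises were 2 probe sets of Ctsb, at 0.54 ± 0.10 and 0.50 ± 0.11 (limma adjusted p = 0.0165 and 0.0366). Its other tested probe sets had the same sign and did not pass (0.34 and 0.46, limma adjusted p = 0.364 and 0.194). The falls were Ctsh, an aminopeptidase, at -2.24 ± 0.16 (adjusted p = 8.3e-05), and Ctss, which processes the invariant chain, at -1.12 ± 0.20 (adjusted p = 0.0117). Ctsl, a target of Ctla2a, had a mean ratio of 0.55 ± 0.15 and did not pass (adjusted p = 0.0657). Ctsc, inhibited by Cst7, was at -0.46 ± 0.15 and did not pass either (adjusted p = 0.117).

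Of 5 tested granule serine proteases 0 rose and 2 fell by limma, or 40%, against 5.13% of all tested probe sets. The other 3 were at mean ratios between -0.017 and 0.046. Gzmb, the granzyme of cytotoxic lymphocytes that mast cells can also express, was at 53.2 and 6.27 in Icsbp-deficient GMP, against 338 and 286 in wild type GMP, a mean ratio of -2.24 ± 0.23 (adjusted p = 0.000643). Both Icsbp-deficient signals lay under 76.8, so Gzmb entered the test through its wild type signals and the size of its ratio is not exact. The basophil protease Mcpt8, itself 1 of the markers counted above, fell by 0.87 ± 0.16 on the log2 scale (adjusted p = 0.0154). Elane, Prtn3 and Ctsg, the targets of Serpinb1a, had mean ratios of 0.046, -0.017 and 0.015 (adjusted p = 0.821, 0.934 and 0.942 in limma). Their signals are among the brightest, which the normalisation within array type draws together. Of the 16 protease probe sets 6 passed, against 0 in limma without the array type block, with 4 at an unadjusted p under 0.05, 2 with the Icsbp-deficient 430A array also left out and 1 with any other array left out.

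**Figure D4:**
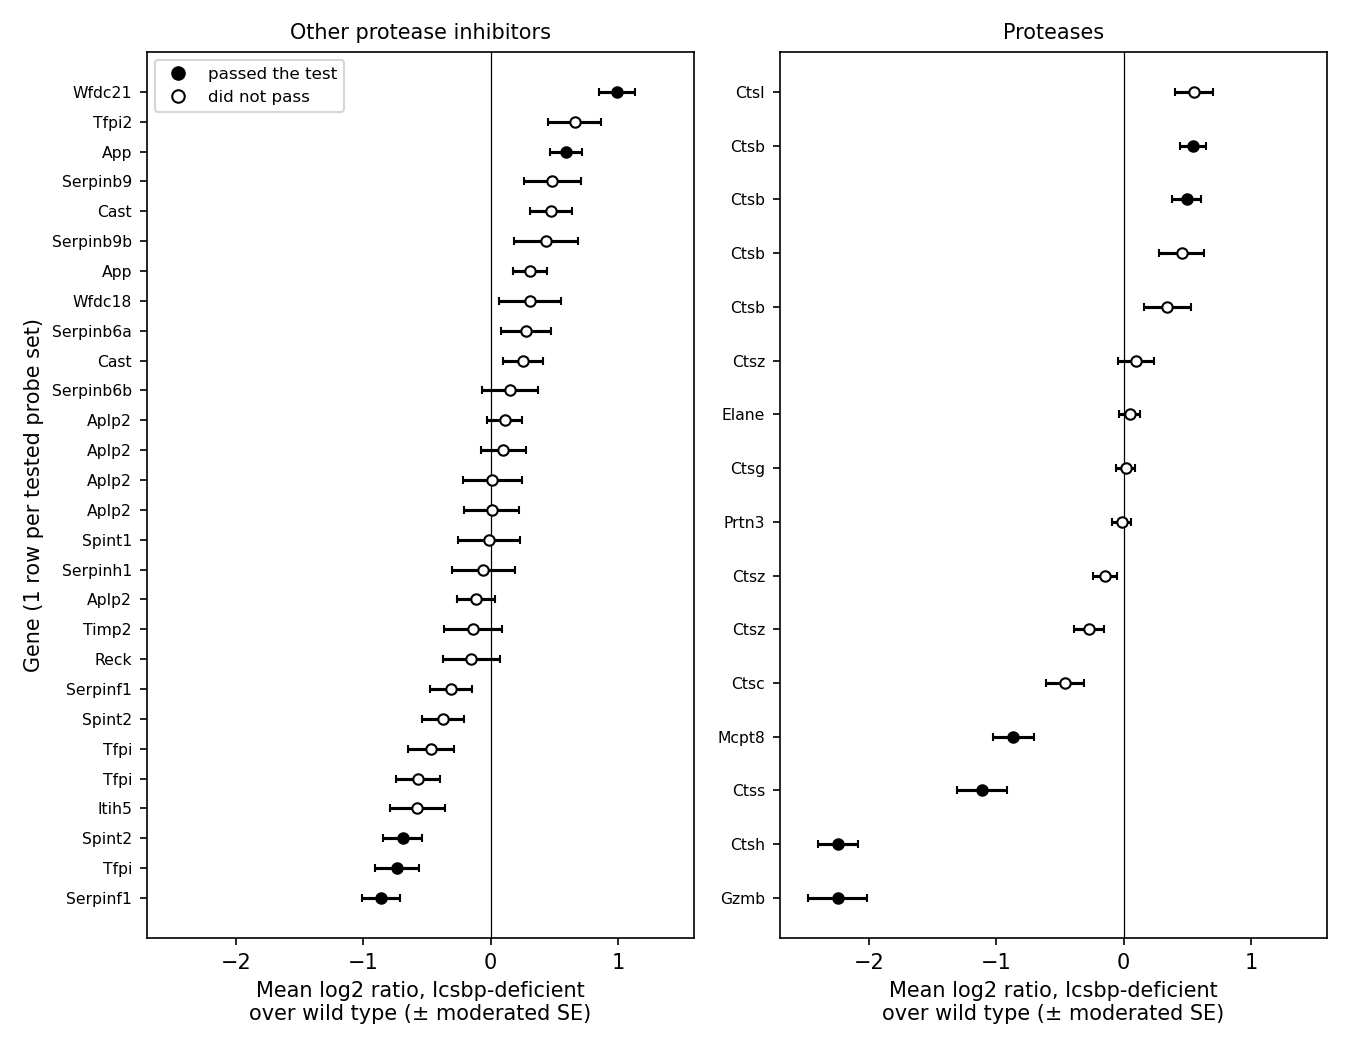
Mean log2 ratio of Icsbp-deficient over wild type with its moderated standard error for each tested probe set of the other protease inhibitors (left, 28 rows) and of the proteases (right, 16 rows), sorted by ratio and filled where the adjusted p was under 0.05. Wfdc21 at 0.99 and Serpinf1 at -0.86 are the extremes on the left, and Gzmb and Ctsh, both at -2.24, the lowest on the right, Gzmb with both Icsbp-deficient signals under the testing limit of 76.8.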

How the data were processed

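GMP were purified by flow cytometry and their RNA was hybridised to 4 Affymetrix arrays. The deposited files hold 1 linear signal intensity for each of 22690 (430A) or 45101 (MOE430_2) probe sets. The submitters' processing notes name GCOS for the MOE430_2 samples, and its version, a scaling target and the 430A software were not given in the sources used here. Per the labels' protocols an ENZO kit labelled the Icsbp-deficient 430A sample and a one-cycle kit the MOE430_2 samples, while none is stated for the wild type 430A sample. Over shared probe sets the trimmed mean of the deposited intensities was 167 on the Icsbp-deficient and 498 on the wild type 430A array, so these were not on 1 scale, and 158.6 and 160.4 on the MOE430_2 arrays. Detection calls, probe sequences and a further Icsbp-deficient preparation named in the design text were not used here.

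Each array was scaled to a mean of 500, trimmed by 2% at each end, over the 22626 shared probe sets that remained after 64 controls were left out. Signals plus 50 were converted to log2 and quantile normalised between the Icsbp-deficient and wild type array of each type. Only probe sets with a mean at or above the 40th percentile were tested, with limma 3.58.1 in R 4.3.3 (two-sided, an intensity trend in the variance, array type as a block). Benjamini-Hochberg adjustment ran over all 13576, with a threshold of 0.05. This leaves 1 residual degree of freedom per probe set, to which moderation added 8.89, and the number of arrays limits the precision. The fitting was tested on simulated data. Symbols come from the platform annotation, updated through RefSeq names of GRCm38.p6, where 20380 shared probe sets have 1 symbol, 691 several and 1555 none. Preparations were separate pools, 1 of each genotype per array type. The p-values rest on how far the 2 within-type ratios disagree, with most of the variance estimate borrowed from other probe sets. Spread between pools, array types and labelling cannot be told apart in them. All members with all their probe sets, the called genes among the other protease inhibitors and the proteases, and the 3 genes with the closest ratios to the largest mean rise and fall were named by rule; marker genes are named as examples chosen after their values were seen. The members and lists were chosen with earlier results of these data known. Alternatives changed the block, trend, filter, offset, floor, normalisation, arrays and probe sets per gene.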

Additional observations from a re-analysis of the deposited data

How the results depend on the processing

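The direction of all 10 tested member ratios held with an offset of 16 or 200 and a floor of 50. It also held with scaling alone, cyclic loess and quantile normalisation over all 4 arrays. The trend, the filter and the choice of 1 probe set per gene do not enter a ratio, so those settings left each ratio unchanged by construction. With 1 array type alone the direction held for all but Cst3, at -0.031 on the MOE430_2 arrays, and the 5 calls kept their sign there. The 5 calls held under each offset, floor and normalisation of the scaled values. Of 10 member probe sets 0 passed without the array type block, 2 without the intensity trend and 3 of 11 without the filter. At the 60th percentile, where no Ctla2 probe set is tested, 3 of 7 passed, against 673 of all 9051 tested probe sets. With 1 probe set per gene 3 of 7 passed, against 579 of all 7820. Without the probe sets shared by paralogs 4 of 9 passed. With the values as deposited 0 passed, and 1 had an unadjusted p under 0.05. Without the block the ratios keep their values by construction (Ctla2a -2.18, shared -1.34, Serpinb1a 0.55 and 0.70, Slpi 0.71), with adjusted p from 0.554 to 1.00. Without the trend, Serpinb1a (0.55 and 0.70) and Slpi (0.71) lost their calls, and without the filter Serpinb1a did. As deposited, the 430A arrays differ in scale, which moved the median of all tested ratios to -0.65 and the members to -0.63 (Cst3), -0.49 (Cst7), -0.42 and -0.34 (Cstb), -0.14 and -0.051 (Serpinb1a), -0.050 (Slpi), -1.87 (Ctla2a) and -1.49 (shared). Relative to that median Slpi was at 0.60, Serpinb1a at 0.52 and 0.60 and Ctla2a at -1.21.

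Leaving out 1 array at a time, in the model without the block, gave 0 to 1 member calls and ratios from -0.21 to 0.40 for Cst3, -2.53 to -1.83 for Ctla2a, -1.46 to -1.22 for the shared probe set, 0.056 to 1.05 and 0.027 to 1.37 for Serpinb1a and 0.61 to 0.81 for Slpi, and Cst3 was at -0.080 without the Icsbp-deficient MOE430_2 array. The single array left in a group was then assumed to vary like the other group. That group has 1 array type only, so these ratios also take in the difference in signal between array types. Over all probe sets 696 passed, 1 without the block, 267 without the trend, 266 without the filter, 0 as deposited (28 at an unadjusted p under 0.05) and 37 to 55 with an array left out. The other inhibitors had 5 calls, 0 without the block (3 at an unadjusted p under 0.05), 2 without the trend or the filter, 0 as deposited (0 unadjusted), 3 with 1 probe set per gene and 0 to 0 with an array left out (2 to 5 unadjusted). The proteases had 6 calls, 0 without the block (4 unadjusted), 2 without the trend or the filter, 0 as deposited (2 unadjusted) and 1 to 2 with an array left out. Signals near 0, as for the stefin A genes, cannot show a difference.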
